A study of Saccharomyces cerevisiae with 222 samples.

Results

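Summits within 50 kb of a chromosome end were examined in budding yeast cells that entered S phase after replication had, or had not, been forced in G1. A summit is the single position of highest EdU enrichment in a called peak, and members were all summits on nuclear chromosomes other than chromosome 12 that lay at most 50 kb from either end in the R64 (sacCer3) assembly. Of the 2434 summits in the 6 lists, 1804 lay on these 15 chromosomes and 221 of those were members. The windows cover 30 ends and 1.5 Mb, which is 13.6% of the length of the 15 chromosomes. All strains were of the W303 background, were arrested with α-factor, induced with 2% galactose for 3 h and released for 90 min into 100 µM EdU, a thymidine analog, and 200 mM hydroxyurea, which slows forks soon after origins fire. CDK/DDK bypass cells (strain YKR1447) expressed Dpb11 and the sld2-T84D allele, which bypass cyclin-dependent kinase, together with the DDK subunit Dbf4. CDK bypass cells (strain YKR1445) expressed Dpb11 and sld2-T84D without the extra Dbf4, and control cells (strain E3087) carried no bypass. There were 2 replicates per group, each with its own peak list, and the bypass genes were driven by galactose-inducible promoters. Nothing in the labels says whether replicates were separate cultures, so tests over lists measure only the spread between these lists.

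Yeast chromosomes end in short TG-rich telomeric repeats, with a core X element further inward and, at many ends, copies of the longer Y' element between the repeats and the X element. Both elements contain autonomously replicating sequences (ARS), the DNA on which the origin recognition complex assembles, but origins near telomeres usually fire late or are passively replicated. Y' elements also encode a helicase, annotated as the YRF1 genes. The annotation used here places a Y' element at 15 of the 30 ends (Y' ends), in telomere features of 5.50 to 7.78 kb. The other 15 ends carry an X element without a Y' element (X-only ends), in features of 431 to 1098 bp. The annotated arrangement of ends is that of the reference strain, and whether the W303 strains carry the same Y' copies was not tested.

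The sequences at the highest telomeric summits of the control are shown because they carry the main pattern at the ends, a set of near-identical repeats. Each run is 61 bases of R64, read toward the end of the chromosome, with the summit base of control replicate 1 in capitals. The first 4 come from chr4:1531517-1531577, chr16:411-471, chr16:947514-947574 and chr7:1090398-1090458, and each is present 13 times in the genome.
Chromosome 4 right: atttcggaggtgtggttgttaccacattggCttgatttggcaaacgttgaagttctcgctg
Chromosome 16 left: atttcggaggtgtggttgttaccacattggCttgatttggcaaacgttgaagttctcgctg
Chromosome 16 right: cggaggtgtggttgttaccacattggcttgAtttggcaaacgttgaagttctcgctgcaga
Chromosome 7 right: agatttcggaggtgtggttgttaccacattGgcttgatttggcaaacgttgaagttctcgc
The summits at chromosome 4 right and chromosome 16 left therefore fell on the same base of the repeat.

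By contrast, the runs at chr2:1069-1129, chr5:359-419 and chr8:920-980 occur once each as exact matches, although they also lie in Y' elements. The sequence around them is not unique. Of the 51-base runs within 150 bp of the control replicate 1 summit, 77.7%, 79.7% and 84.1% were repeated. These sites are shown because the highest summits of the 6 lists lay within 5 bp of each other there.
Chromosome 2 left: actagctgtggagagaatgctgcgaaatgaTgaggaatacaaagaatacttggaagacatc
Chromosome 5 left: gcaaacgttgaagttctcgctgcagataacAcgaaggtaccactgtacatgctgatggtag
Chromosome 8 left: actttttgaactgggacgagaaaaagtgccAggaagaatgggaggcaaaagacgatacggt

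Only 2 X-only ends had a summit in the telomere feature, and both summits lay in the telomeric repeat itself, at chr3:185-245 and chr14:784160-784220. All 61 bases of these runs are G or T.
Chromosome 3 left: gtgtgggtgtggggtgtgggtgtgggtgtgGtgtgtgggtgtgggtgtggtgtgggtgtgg
Chromosome 14 right: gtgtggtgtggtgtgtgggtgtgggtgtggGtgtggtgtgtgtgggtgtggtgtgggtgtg

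The ends held fewest summits in CDK/DDK bypass cells. Lists held 19 and 33 end summits in CDK/DDK bypass cells, 45 and 50 in CDK bypass cells and 37 and 37 in control cells. The means were 26 ± 9.90 in CDK/DDK bypass, 47.5 ± 3.54 in CDK bypass and 37 ± 0 in control cells (SD, n = 2 lists each), and the ranges of the 3 groups did not overlap. The differences were −11.0 summits for CDK/DDK bypass minus control, 10.5 for CDK bypass minus control and −21.5 for CDK/DDK bypass minus CDK bypass. Each had p = 0.333 in an exact two-sided permutation test (adjusted p = 0.429 over 18 tests), the smallest p that 2 lists against 2 allow. With every list cut to its 205 highest-scored summits, the counts were 19 and 30 in CDK/DDK bypass, 32 and 33 in CDK bypass and 31 and 30 in control lists, so the CDK/DDK bypass and control ranges met and the differences shrank to −6.0 (exact permutation p = 0.667), 2.0 and −8.0. Keeping 1 summit per 5 kb brought CDK bypass minus control to 0.5, and leaving out 1 list gave −18.0 to −4.0 for CDK/DDK bypass minus control. Lists also differed in total length, and the share of a list's summits that lay near ends was 9.27% and 12.8% in CDK/DDK bypass cells, 13.2% and 13.2% in CDK bypass cells and 13.3% and 10.8% in control cells. These shares overlapped between the CDK/DDK bypass and control lists (difference −0.97 points, exact permutation p = 0.667, adjusted p = 0.75) and between the CDK bypass and control lists (difference 1.17 points, exact permutation p = 1, adjusted p = 1). They did not overlap between the CDK/DDK bypass and CDK bypass lists (difference −2.14 points, exact permutation p = 0.333, adjusted p = 0.429). They stand near the 13.6% of length that the ends make up. The member just inside the 50 kb limit lay 47969 bp from the left end of chromosome 4 in control replicate 1, and the nearest summit outside it lay 52273 bp from the right end of chromosome 6 in CDK bypass replicate 1.

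Most members crowded into the outermost 10 kb. There were 13 and 25 such summits in CDK/DDK bypass lists, 30 and 34 in CDK bypass lists and 22 and 21 in control lists, between 56.8% and 75.8% of a list's members. Beyond 10 kb, the lists held 6 and 8 members in CDK/DDK bypass cells, 15 and 16 in CDK bypass cells and 15 and 16 in control cells. The median distance from the end was 1.10 and 1.18 kb in CDK/DDK bypass lists, 5.64 and 5.62 kb in CDK bypass lists and 6.29 and 6.37 kb in control lists. The groups did not overlap in this measure, with differences of −5.19 kb for CDK/DDK bypass minus control, −0.70 kb for CDK bypass minus control and −4.49 kb for CDK/DDK bypass minus CDK bypass (exact permutation p = 0.333, adjusted p = 0.429 each). The CDK/DDK bypass minus control difference depended on the setting. It was −0.88 kb with equal list lengths (1.10 and 1.26 kb in CDK/DDK bypass, against 1.119 and 3.00 kb in control lists, which overlap), −2.18 kb with 1 summit per 5 kb, −0.19 kb with a 30 kb limit and 0.416 kb without the outer 10 kb, where the CDK/DDK bypass minus CDK bypass difference was −0.30 kb.

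**Figure D1:**
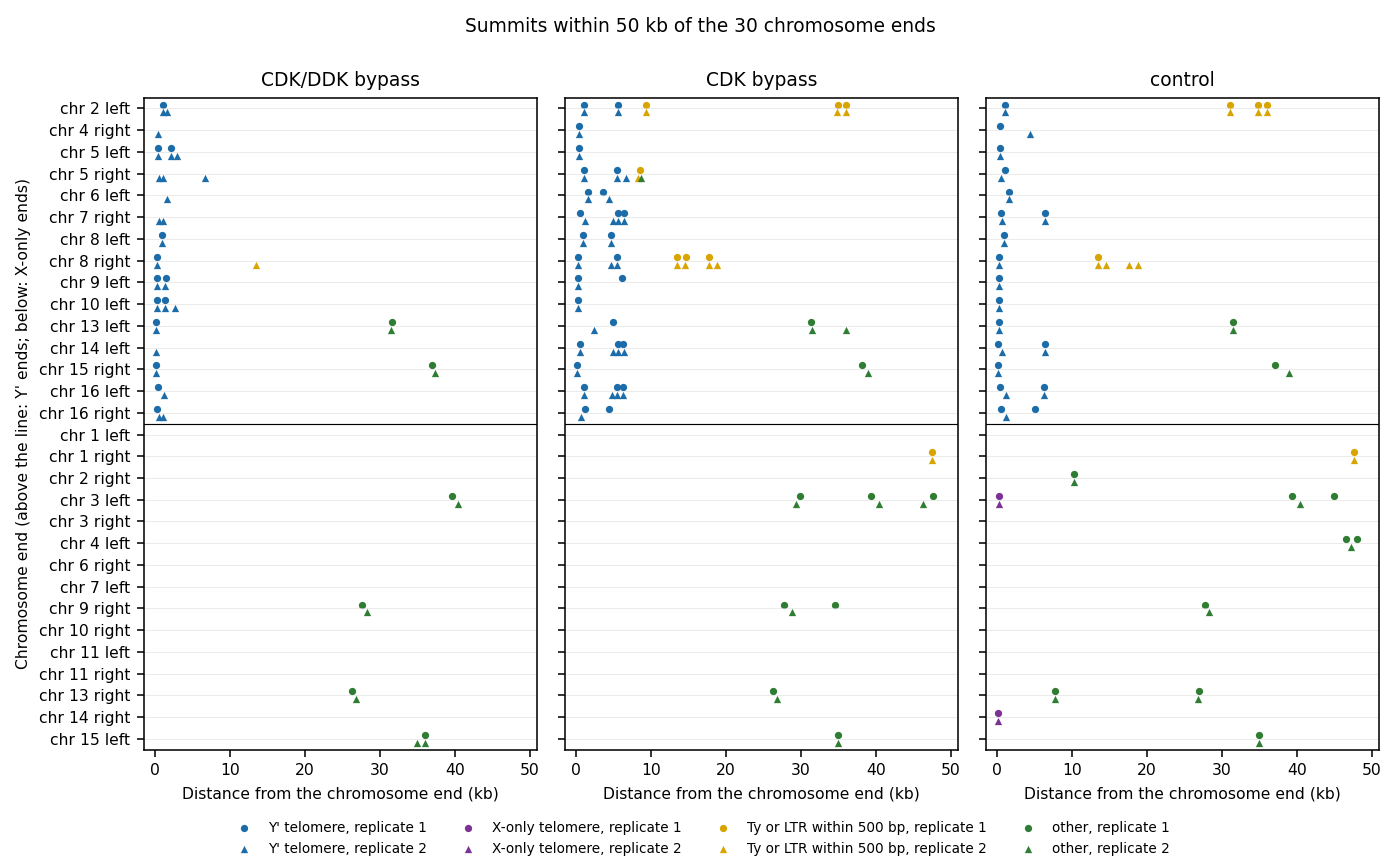
Distance of each summit from its chromosome end in kb (horizontal) for the 30 ends (vertical), in CDK/DDK bypass, CDK bypass and control cells. Circles are replicate 1, triangles replicate 2, and colors give the sequence at the summit. All 15 Y' ends have summits in their outermost 8 kb. In the whole 50 kb, 7 of the 15 X-only ends have none in any list.

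Y' ends and X-only ends differed in where their summits lay. All 15 Y' ends had a summit in the telomere feature in at least 1 list, and 134 of the 221 members (60.6%) lay in these features, which make up 6.81% of the end bases. X-only ends had 4 summits in their telomere features. This split of the ends was chosen after the positions were seen, so it has no test. A Y' telomeric summit was present at 10 and 15 of the 15 Y' ends in CDK/DDK bypass lists, at 15 and 15 in CDK bypass lists and at 15 and 15 in control lists. The number of such summits was 13 and 25 in CDK/DDK bypass lists, 28 and 31 in CDK bypass lists and 19 and 18 in control lists. The 7 ends with no summit in any list were all X-only ends: chromosome 1 left, 3 right, 6 right, 7 left, 10 right, 11 left and 11 right. The ends with most summits over the 6 lists were chromosome 8 right with 22 and chromosome 2 left with 21, both Y' ends that also hold Ty elements, followed by chromosomes 3 left, 5 right, 7 right, 13 left and 16 left with 13 each.

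At some Y' ends, but not all, positions recurred closely from list to list. On chromosome 8 left, in YHL050C, a Y' helicase-like open reading frame, the highest summit lay at position 950 in all 6 lists. On chromosome 2 left, in YBL113C, another such frame, the highest summits lay within 2 bp of each other, at positions 1097 to 1099. The highest summits at the left end of chromosome 5, in YEL077C, spanned 5 bp. Spans were 37, 20 and 20 bp at chromosomes 9 left, 10 left and 15 right. They were far wider at chromosomes 13 left, 16 right and 16 left, with 4730, 1010 and 783 bp. The score, which is −log10 of the peak caller's q-value and depends on depth, was 42.8 and 71.3 in CDK/DDK bypass lists, 493 and 593 in CDK bypass lists and 1556 and 1751 in control lists at the summit of chromosome 2 left. For chromosome 8 left it was 43.4 and 67.6 in CDK/DDK bypass lists, 323 and 376 in CDK bypass lists and 905 and 1191 in control lists. At both ends the scores of the 3 groups did not overlap, but this was not particular to Y' sequence. At ARS1303, near the left end of chromosome 13, scores were 54.9 and 98.6 in CDK/DDK bypass, 419 and 559 in CDK bypass and 1137 and 1567 in control lists. At ARS305 on chromosome 3 they were 302 and 458, 2131 and 2316, and 2013 and 3296, where CDK bypass and control overlapped. Such orders of raw scores were not counted over all regions.

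Because scores are not comparable between lists, each summit was also given its percentile, the percent of the same list's summits on the 15 chromosomes with an equal or lower score. For chromosome 2 left the percentile of the highest summit was 60.98 and 70.4 in CDK/DDK bypass lists, 84.5 and 85.8 in CDK bypass lists and 86.7 and 86.0 in control lists. It was 62.0 and 68.9 in CDK/DDK bypass lists, 78.9 and 80.2 in CDK bypass lists and 77.1 and 81.9 in control lists for chromosome 8 left. The Y' summits at the left end of chromosome 9, a region called in all lists, had percentiles of 73.7 and 80.9 in CDK/DDK bypass lists, 82.99 and 83.1 in CDK bypass lists and 80.6 and 82.8 in control lists, with summits 235 to 272 bp from the end and beside YIL177C. Over all Y' ends with a telomeric summit, the median percentile of the highest one was 61.5 and 50.6 in CDK/DDK bypass lists, 68.0 and 72.8 in CDK bypass lists and 65.2 and 70.0 in control lists. These medians lay lower in CDK/DDK bypass lists than in both other groups, but covered 10 ends in CDK/DDK bypass replicate 1 and 15 in every other list. Single ends varied. At chromosome 10 left, percentiles were 75.1 and 82.9 in CDK/DDK bypass, 80.1 and 82.1 in CDK bypass and 79.9 and 81.0 in control lists, which overlap.

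Median scores were lower at ends where the exact 61 bases at the control summit had many copies. The Y' ends were divided, after the values were seen, by how often the 61 bases around the highest summit of control replicate 1 occur in the genome. There were 8 ends with 1 to 5 copies and 7 ends with 10 to 13 copies. Only exact matches count, so few copies does not mean unique sequence. At chromosomes 2, 5 and 8 left, 77.7%, 79.7% and 84.1% of 51-base runs within 150 bp of that summit were repeated. Such runs had up to 19, 18 and 19 copies. Highest summits of other lists could lie elsewhere, as at chromosome 5 right. There it lay 6700 bp from the end in CDK/DDK bypass replicate 2, against 1119 bp in control replicate 1. At ends of 10 or more copies, the highest telomeric summit had a median score of 2.66 and 8.97 in CDK/DDK bypass lists, 98.6 and 124 in CDK bypass lists and 349 and 433 in control lists. At ends of 5 or fewer copies these medians were 62.6 and 71.9 in CDK/DDK bypass lists, 357 and 404 in CDK bypass lists and 983 and 1121 in control lists. Single ends could overlap. In control replicate 1, scores ran from 331 to 1556 with few copies and from 308 to 429 with many. The ranges also overlapped in control replicate 2 and CDK/DDK bypass replicate 2, but not in CDK/DDK bypass replicate 1 or either CDK bypass list. In CDK/DDK bypass replicate 1, a telomeric summit was called at 7 of the 8 ends with few copies and at 3 of the 7 ends with many copies. No filter on mapping quality is stated for the peak calling, and how reads from such repeats were shared among the ends was not tested. Ends that share these sequences are not independent of each other.

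To compare ends, every Y' telomeric summit was placed on 1 copy, the telomere feature at the left end of chromosome 14, by its nearest shared run of 25 bases. All 134 could be placed. In the outer 3 kb of this copy lay 13 and 24 summits in CDK/DDK bypass lists, 14 and 15 in CDK bypass lists and 15 and 14 in control lists. Beyond 4.5 kb lay 0 and 1 in CDK/DDK bypass lists, 14 and 16 in CDK bypass lists and 4 and 4 in control lists. The inner summits of CDK bypass cells came from 11 and 8 ends, those of control cells from 4 and 4 ends. From 5.5 to 6 kb, 7 and 6 summits were found in CDK bypass lists and none in either CDK/DDK bypass or control lists. From 6 to 6.5 kb there were 0 and 0 in CDK/DDK bypass lists, 5 and 6 in CDK bypass lists and 4 and 3 in control lists. These zones were chosen after the positions were seen and were not tested. A peak gives 1 summit only and the lists hold no peak widths, so a missing inner summit need not be a missing peak there. At chromosome 4 right, the only telomeric summit lay at 531 bp of the copy in control replicate 1 and at 4583 bp in replicate 2. Its scores were alike, at 361 and 366. How peaks were divided along the Y' elements was not tested. The total number of summits also differed between lists, at 205 and 257 in CDK/DDK bypass, 341 and 379 in CDK bypass and 279 and 343 in control lists on the 15 chromosomes.

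**Figure D2:**
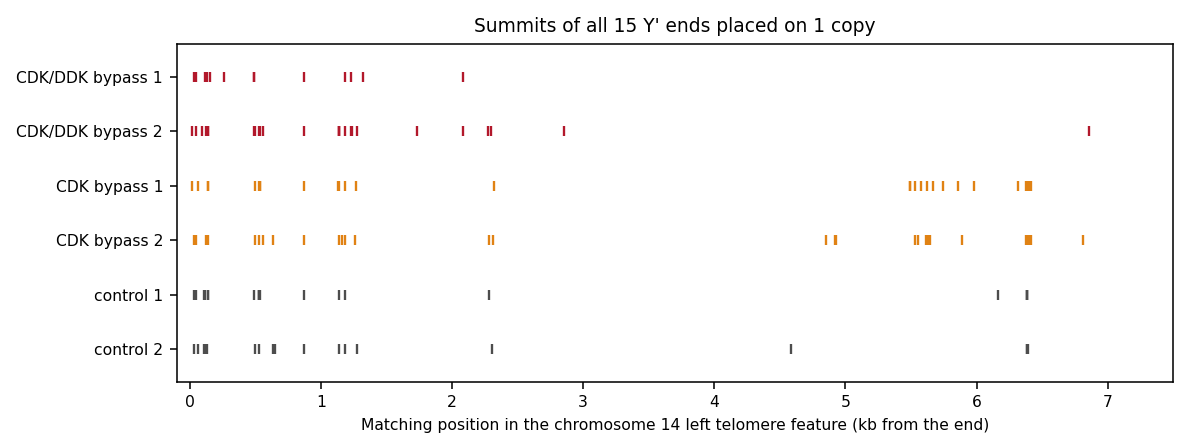
Each tick is 1 of the 134 summits in Y' telomere features, placed on the copy at the left end of chromosome 14 (kb from the end, horizontal), with 1 row per list. In the outer 3 kb all 6 lists have summits at like positions, and beyond 4.5 kb the CDK bypass lists have 14 and 16, against 0 and 1 in CDK/DDK bypass and 4 and 4 in control lists.

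In the X-only telomeres, summits were called in control cells only. At the left end of chromosome 3, the summit lay 214 and 212 bp from the end with scores of 91.7 and 21.5 in the control lists, in the telomere feature that also holds ARS300. At the right end of chromosome 14 it lay 144 and 142 bp from the end with control scores of 167 and 48.3. Neither CDK/DDK bypass nor CDK bypass lists held a summit within 5 kb of these positions.

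Mobile elements made up the second group of repeats. Beyond the telomere features, 31 members lay in or within 500 bp of an annotated Ty retrotransposon or of a long terminal repeat (LTR), and 29 of the 31 lay in repeated sequence. Their number was 0 and 1 in CDK/DDK bypass lists, 8 and 9 in CDK bypass lists and 5 and 8 in control lists. Ty and LTR summits of the interior were not counted. Interior summits in repeated sequence of any kind were also fewest in CDK/DDK bypass lists, at 9 and 11. They numbered 72 and 113 in CDK bypass lists and 62 and 123 in control lists. Whether the Ty and LTR counts are particular to the ends was not tested. At the right end of chromosome 8, the summit in YHR214C-B, a Ty Gag-Pol gene, lay at chr8:549147 in 5 lists. It was absent in CDK/DDK bypass replicate 1 and had a score of 41.4 in replicate 2, against 174 and 255 in CDK bypass lists and 204 and 447 in control lists. At the left end of chromosome 2, the Gag-Pol gene YBL100W-B and the stretch between it and the tRNA gene YNCB0002W held 2 and 2 summits in CDK bypass lists, 3 and 3 in control lists and none in CDK/DDK bypass lists. A further such site next to the tRNA gene YNCA0006C, 47.5 to 47.6 kb from the right end of chromosome 1, was called in both CDK bypass and both control lists and in neither CDK/DDK bypass list.

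Altogether, 161 of the 221 members (72.9%) lay in repeated sequence, defined as 50% or more of the 51-base runs within 150 bp of the summit occurring more than once in the genome. The share was 68.4% and 75.8% in CDK/DDK bypass lists, 77.8% and 76.0% in CDK bypass lists and 64.9% and 70.3% in control lists. In the interior of the same chromosomes it was 4.84% and 4.91% in CDK/DDK bypass lists, 24.3% and 34.3% in CDK bypass lists and 25.6% and 40.2% in control lists. In each list the end share was the higher one. This measure was chosen after the results were seen and was not tested.

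The remaining 60 members lay in unique sequence by this rule, and a few origins accounted for most of them. There were 6 and 8 in CDK/DDK bypass lists, 10 and 12 in CDK bypass lists and 13 and 11 in control lists. Of these, 83.3% and 87.5% in CDK/DDK bypass lists, 70.0% and 75.0% in CDK bypass lists and 69.2% and 72.7% in control lists had an ARS within 2.5 kb.

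ARS305, an efficient early origin near the left end of chromosome 3 (chr3:39508-39595), had the highest mean percentile of the end regions over the 6 lists. Its highest summit had a percentile of 93.7 and 96.5 in CDK/DDK bypass lists, 98.5 and 98.4 in CDK bypass lists and 93.9 and 99.7 in control lists. The summits lay within 983 bp, at or near YCL049C. ARS922, with summits in the allantoin degradation gene DAL2 or in DCG1, near the right end of chromosome 9 (chr9:411935-412011), had percentiles of 89.8 and 93.4 in CDK/DDK bypass lists, 95.9 and 95.8 in CDK bypass lists and 100 and 98.5 in control lists, above ARS305 in control replicate 1. Here the CDK/DDK bypass values lay below those of both other groups.

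At ARS1332 near the right end of chromosome 13 (chr13:897935-897985), with summits in GLC8, a regulator of protein phosphatase, or beside the Elongator gene ELP6, percentiles were 78.5 and 87.2 in CDK/DDK bypass lists, 86.8 and 88.4 in CDK bypass lists and 84.9 and 86.6 in control lists. The groups overlapped. At ARS1303, in the left arm of the same chromosome beside YML119W, they were 66.8 and 77.0 in CDK/DDK bypass lists, 80.6 and 84.7 in CDK bypass lists and 81.7 and 84.8 in control lists. ARS1531, beside the cell-wall protein gene ZPS1 near the left end of chromosome 15, had the lowest values of the origins called in every list. Its percentiles were 25.9 and 37.7 in CDK/DDK bypass lists, 60.997 and 62.5 in CDK bypass lists and 55.6 and 63.0 in control lists.

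One strong site had no annotated ARS near it. It lay 36913 to 38892 bp from the right end of chromosome 15, at chr15:1052400-1054379, with 2 summits inside RDR1, a repressor of multidrug resistance genes, and the others nearest to RDR1 or to FRE3, a ferric reductase gene. The nearest ARS was over 70 kb away. Percentiles were 79.5 and 84.4 in CDK/DDK bypass lists, 91.5 and 93.9 in CDK bypass lists and 89.2 and 93.3 in control lists.

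Summits of all lists, widened by 5 kb on each side and merged, gave 200 regions on the 15 chromosomes, of which 28 held a member. Of these 28 end regions, 17 and 22 were called in CDK/DDK bypass lists, 23 and 23 in CDK bypass lists and 28 and 28 in control lists. One of them, at the right end of chromosome 1, reached inward to ARS110, and its highest summits were interior ones at or within 580 bp of ARS110, with percentiles of 92.2 and 94.2 in CDK/DDK bypass lists, 95.6 and 96.0 in CDK bypass lists and 93.5 and 95.9 in control lists. All 6 lists called 17 of the 28 (60.7%), against 67.0% of all 200 regions. In 12 of these 17, both CDK/DDK bypass percentiles lay below both control percentiles, beside 53.7% of the 134 regions called in all lists, and in 0 of 17 both lay above them, beside 15.7%. Both CDK bypass percentiles lay below both control percentiles in 2 of 17, beside 8.21% of the 134, and above them in 4 of 17, beside 51.5%. Both CDK/DDK bypass percentiles lay below both CDK bypass percentiles in 15 of 17, beside 74.6%, and above them in 0 of 17, beside 6.72%. Percentiles depend on which other summits a list holds. When only the 134 common regions were ranked, an order chosen after the data were seen, 9 of 17 end regions ranked lower in both CDK/DDK bypass lists than in both control lists (36.6% of the 134) and 1 ranked higher (37.3% of the 134). In the same ranking, both CDK bypass values lay below both control values in 9 of 17 end regions, beside 32.1% of the 134, and above them in 0 of 17, beside 32.1% as well. CDK/DDK bypass ranks lay below CDK bypass ranks in 12 of 17, beside 38.8%, and above them in 3 of 17, beside 36.6%. Those 3 were Y' regions, at chromosomes 9 left, 10 left and 15 right. The groups are compared in pairs that share lists, so these counts are not independent.

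**Figure D3:**
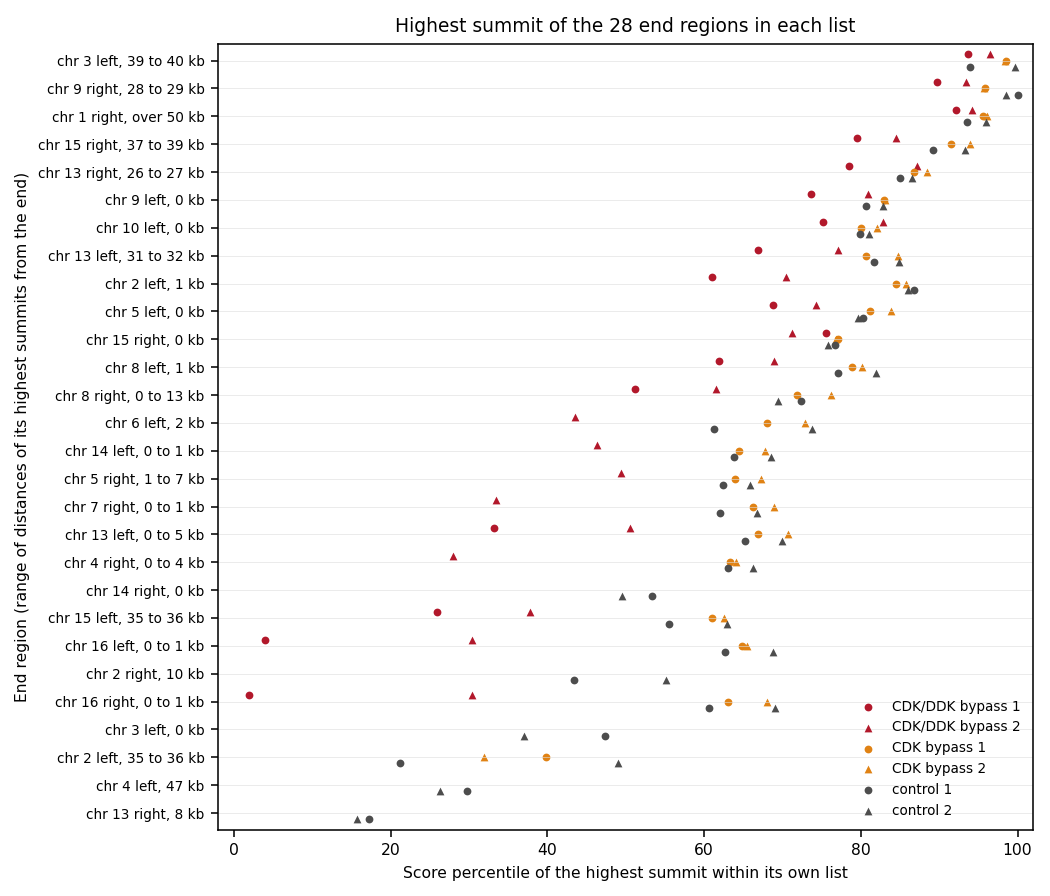
Score percentile within its own list (horizontal) of the highest summit in the 28 end regions (vertical, ordered by mean), for CDK/DDK bypass (red), CDK bypass (orange) and control (grey) lists, replicate 1 as circles and replicate 2 as triangles. The region of ARS305 lies between 93.7 and 99.7 in every list, and 5 regions have control points only.

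No end region was called in both lists of a bypass group and in neither control list, where 2.5% of all 200 regions were for CDK/DDK bypass and 2.5% for CDK bypass. In the other direction, 6 of the 28 end regions were called in both control lists and in neither CDK/DDK bypass list (21.4%), beside 14% of all regions. For CDK bypass, 5 of 28 were called in both control lists and in neither CDK bypass list (17.9%), beside 2.5% of all regions. Those 5 were the only such regions anywhere on the 15 chromosomes, since 0 of the 172 interior regions met the rule. Between the bypass groups, 1 end region was called in both CDK bypass lists and neither CDK/DDK bypass list, beside 13% of all regions. None was called the other way, beside 2%. With equal list lengths of 205 summits, the 6 and the 5 control regions both became 2. With windows of 1 kb, 7 end regions had calls in both lists of CDK bypass cells and no call in control cells.

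The 5 regions called in control cells only had low to middling scores. One lay in MAL31, the maltose permease gene 10.3 kb from the right end of chromosome 2 (chr2:802881 and chr2:802875), with percentiles of 43.4 and 55.1 in the control lists and no ARS within 10 kb. Another lay in HO, the endonuclease gene of mating-type switching, near ARS404 and 46569 and 47237 bp from the left end of chromosome 4, with percentiles of 29.7 and 26.2. The third, beside ARS1333 and YMR320W and 7.7 kb from the right end of chromosome 13, had percentiles of 17.2 and 15.7. The others were the telomeric repeats of chromosome 3 left, with 47.3 and 37.0, and chromosome 14 right, with 53.4 and 49.6. The sixth region called in both control but neither CDK/DDK bypass list was the Ty element at chromosome 2 left, which both CDK bypass lists also called.

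Of the 64 ARS features whose centre lay within 50 kb of an end, 8 and 9 had a summit within 2.5 kb in CDK/DDK bypass lists, 16 and 14 in CDK bypass lists and 13 and 12 in control lists. The groups did not overlap, with differences of −4.0 features for CDK/DDK bypass minus control, 2.5 for CDK bypass minus control and −6.5 for CDK/DDK bypass minus CDK bypass (exact permutation p = 0.333, adjusted p = 0.429 each). With equal list lengths these became −1.0, 4.0 and −5.0, and the CDK/DDK bypass and control lists overlapped. Both lists of a group called 8 of the 64 (12.5%) in CDK/DDK bypass cells, where 42.4% of all 323 ARS features were called. In CDK bypass cells the count was 14 (21.9%, beside 48.9% of all), and in control cells it was 12 (18.8%, beside 46.7%). All 6 lists called 7 of them: ARS200, ARS305, ARS922, ARS1001, ARS1303, ARS1332 and ARS1531. Another 43 of the 64 (67.2%) had no summit in any list, whereas 85 of 259 interior features (32.8%) had none. ARS201, ARS600, ARS801 and ARS824, all starting in Y' telomere features, had a summit in each of the CDK bypass lists but not in any CDK/DDK bypass or control list. Their summits had percentiles of 45.2 to 53.8 and lay in repeated sequence, so these features are not independent of each other. ARS304, outside the telomere features, met the same rule. How many interior ARS features met it was not counted, so it cannot be read as particular to the ends. Of the 259 interior features, 153 and 147 had a summit in CDK bypass lists. In CDK/DDK bypass lists 134 and 142 did, and in control lists 147 and 143.

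The ARS consensus sequence, the T-rich element bound by the origin recognition complex, was searched as an exact match of 11 bases on both strands of each feature. It was found in 29 of 64 end features (45.3%) and in 86 of 259 interior features (33.2%). Matches of ARS features called in all 6 lists, and of 2 features at other telomeres, are shown to compare telomeric with internal origins, with the match in capitals and 20 bases on each side. They are from chr2:61-111, chr10:251-301 and chr15:35697-35747 (plus strand) and from chr3:1030-1080 and chr9:7716-7766 (minus strand) of R64.
ARS200: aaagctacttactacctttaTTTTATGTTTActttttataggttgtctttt
ARS1001: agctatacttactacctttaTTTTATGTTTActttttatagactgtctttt
ARS1531: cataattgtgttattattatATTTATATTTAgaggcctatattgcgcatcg
ARS300: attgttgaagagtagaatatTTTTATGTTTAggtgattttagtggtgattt
ARS902: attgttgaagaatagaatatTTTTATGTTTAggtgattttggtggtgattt
ARS300, in an X-only telomere feature, and ARS902, which starts at the inner edge of a Y' telomere feature, differ at 2 of the 51 bases shown, and the match has the same letters in both and in ARS200 and ARS1001, which lie in the outermost part of Y' telomere features. Beside ARS300, 2 control lists had a summit, and beside ARS902 1 CDK bypass list did. No exact match lies in ARS305, ARS922, ARS1303 or ARS1332, so the 7 features called in every list included 3 with a match and 4 without.

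End summits lay near an ARS less often than interior summits. The share within 2.5 kb of an ARS was 47.4% and 42.4% at ends in CDK/DDK bypass lists, against 83.9% and 79.5% in the interior. It was 40.0% and 40.0% at ends in CDK bypass lists, against 55.7% and 52.0% in the interior, and 37.8% and 32.4% at ends in control lists, against 64.5% and 54.2% in the interior. The mean difference was −24.95 ± 10.4 points (SD, n = 6 lists) and had the same sign in 6 of 6 (exact paired permutation p = 0.03125, the smallest possible, adjusted p = 0.046875 over 3 tests). This held although ARS neighborhoods cover more of the ends, 19.9% of their bases against 13.9% of interior bases. Without summits in repeated sequence, at ends and in the interior alike, the difference was −4.08 points (exact paired permutation p = 0.3125). Without the outer 10 kb, the end shares were 83.3% and 75.0% in CDK/DDK bypass lists. They were then 40.0% and 37.5% in CDK bypass lists and 53.3% and 43.75% in control lists. Between groups, the end share differed by 9.76 points for CDK/DDK bypass minus control, 4.86 for CDK bypass minus control and 4.90 for CDK/DDK bypass minus CDK bypass (exact permutation p = 0.333, adjusted p = 0.429 each).

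**Figure D4:**
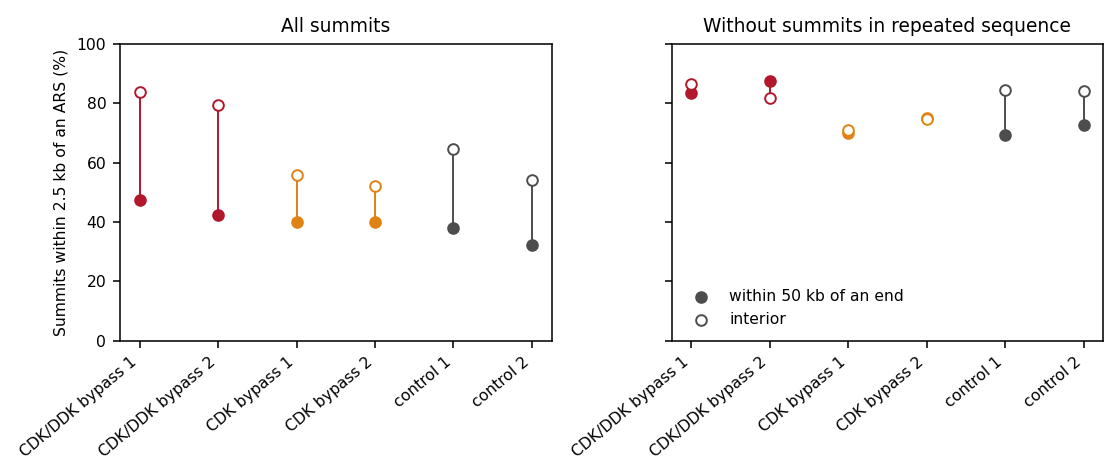
Percent of summits within 2.5 kb of an ARS in each list, at the ends (filled) and in the interior (open), for all summits (left) and without summits in repeated sequence (right). On the left the end value lies below the interior value in all 6 lists, with a mean difference of −24.95 points, and on the right the mean difference is −4.08 points.

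Summit density was slightly lower at ends, with 1.27 and 2.2 per 100 kb in CDK/DDK bypass lists against 1.96 and 2.36 in the interior, 3.00 and 3.33 in CDK bypass lists against 3.12 and 3.47, and 2.47 and 2.47 in control lists against 2.55 and 3.22. The mean difference was −0.32 per 100 kb (exact paired permutation p = 0.03125, adjusted p = 0.046875, lower in 6 of 6 lists). It became −0.06 with 1 summit kept per 5 kb (p = 0.5625, exact permutation), turned to 0.09 with equal list lengths and to 0.53 with a limit of 30 kb from the end, and was −1.43 without summits in repeated sequence. Without the outer 10 kb, end density was 0.5 and 0.67 per 100 kb in CDK/DDK bypass lists. It was then 1.25 and 1.33 in CDK bypass lists and 1.25 and 1.33 in control lists, with interior values unchanged. The median percentile of end summits was 62.0 and 49.4 in CDK/DDK bypass lists, 56.9 and 56.9 in CDK bypass lists and 61.3 and 66.8 in control lists. It exceeded that of interior summits by 10.6 points on average, in 5 of 6 lists (exact paired permutation p = 0.0625, adjusted p = 0.0625). Differences between groups were −8.34 for CDK/DDK bypass minus control, −7.15 for CDK bypass minus control and −1.19 for CDK/DDK bypass minus CDK bypass (exact permutation p = 0.667, 0.333 and 1, adjusted p = 0.75, 0.429 and 1).

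No gene of the 10 subtelomeric families counted first lay near a summit in CDK/DDK bypass lists, whereas a few did in the other lists. Genes of the YRF1 family, added later, lay near a summit in every list. Of 72 genes in 10 families within 50 kb of an end, 0 and 0 had a summit within 2.5 kb in CDK/DDK bypass lists, 6 and 6 (8.33% and 8.33%) in CDK bypass lists and 8 and 8 (11.1% and 11.1%) in control lists. Among all 686 genes in the end windows these numbers were 34 and 53 (4.96% and 7.73%) in CDK/DDK bypass lists, 85 and 82 (12.4% and 11.95%) in CDK bypass lists and 79 and 72 (11.5% and 10.5%) in control lists. The families were not tested against other genes. The COS genes, which encode membrane proteins found next to telomeres, accounted for 4 and 4 of 11 in CDK bypass lists and 2 and 2 in control lists. Among the seripauperin genes (PAU), 2 and 2 of 17 were near a summit in CDK bypass lists and 2 and 2 in control lists. The maltose cluster genes MAL31, MAL32 and MAL33 were near a summit in control lists alone, as was SNO4. In each control list the maltose genes shared 1 summit, in MAL31, so they are not separate sites. No member of the flocculin (FLO), hexose transporter (HXT), aryl-alcohol dehydrogenase (AAD) or THI5 families was near a summit in any list. The YRF1 helicase genes, a list added after the values were seen, had 2 and 6 of 6 near a summit in CDK/DDK bypass lists and 6 of 6 in each CDK bypass and control list.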

How the data were processed

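The authors aligned paired-end reads to sacCer3 with BWA 0.7.17-r1188, used SAMtools 1.12, and called peaks with MACS2 2.2.7.1 for each EdU-IP sample against total DNA of the same sample (stated q limit 0.1). Each deposited summit list gives a position and a score, −log10 of the q-value. The lists hold no read counts, so the depth of each is unknown and no counting interval is given. The other 216 samples were not analysed here. Positions are counted from 1 on R64 (annotation R64-5-1), and distances from the end were measured to the summit. Chromosome 12, which holds the rDNA, was left out. Groups of 2 lists were compared by exact two-sided permutation over 6 assignments, and ends with the interior by exact paired permutation over 64 sign assignments. P-values were adjusted by the Benjamini-Hochberg method over 18 and 3 tests. Computations used Python 3.11.15, numpy 2.4.6, scipy 1.17.1, bedtools 2.31.1 and matplotlib 3.10.9, and were tested on simulated lists.

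The members, gene lists and tests were chosen with earlier results of these data known. Regions were named if called in both lists of 1 group and neither of another, or if among the 6 with the highest mean percentile of those called in all lists. Ends with no summits, and those with most, were named too. Consensus matches were taken from the ARS of these regions, without the interior ARS101 and ARS110. Other sites were named after their values were seen: the Y' summits of chromosomes 2, 5 and 8, the Ty and LTR sites, and all other ARS. Alternatives were a minimum score of 2, lists cut to the length of the shortest, thinning to 1 summit per 5 kb, a 30 kb limit, the outer 10 kb left out, chromosome 12 included, ARS distances of 1 and 5 kb, windows of 1 and 2.5 kb, each list left out, and same-numbered replicates as a block. Leaving out repeated sequence, and ranks among common regions, were added after the data were seen.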

Additional observations from a re-analysis of the deposited data

Results flagged for a closer look

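For end summits per list, every CDK/DDK bypass list lay below the control mean (19 and 33 against 37) and every CDK bypass list lay above it (45 and 50), so the 2 bypass groups moved in opposite directions and differed by −21.5 summits (exact permutation p = 0.333). The same was seen for end ARS features with a summit, with 8 and 9 in CDK/DDK bypass and 16 and 14 in CDK bypass lists against 13 and 12 in control lists, a difference of −6.5 between the bypass groups (exact permutation p = 0.333). Mean list lengths ran in the same order. With equal list lengths the differences between the bypass groups were −8.0 summits and −5.0 ARS features, and against control they were −6.0 summits and −1.0 features for CDK/DDK bypass and 2.0 summits and 4.0 features for CDK bypass. On chromosome 12, outside the comparisons, 3 and 6 summits lay near the ends in CDK/DDK bypass lists and 6 and 3 in CDK bypass lists, against 2 and 2 in control lists, and all lay in the telomere features.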

How the results depend on the processing

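Between groups no alternative could pass the threshold, since 2 lists against 2 allow no p below 0.333. The lower number of end summits and of end ARS features in CDK/DDK bypass lists, against either other group, kept its direction under every alternative run, but not its size. Leaving out 1 list gave −18.0 to −4.0 summits for CDK/DDK bypass minus control and −28.5 to −14.5 for CDK/DDK bypass minus CDK bypass, and equal list lengths gave −6.0 and −8.0. For CDK bypass minus control, the number of end summits became 0 without the outer 10 kb and −1.0 without repeated sequence, and the number of ARS features became −1.0 under both. The share near ends turned to 0.365 points for CDK/DDK bypass minus control with a 30 kb limit, and for CDK bypass minus control to −1.20 with 1 summit per 5 kb, −0.672 without the outer 10 kb and −1.43 without repeated sequence. Leaving out 1 list moved it between −2.76 and 0.816 (turned without CDK/DDK bypass replicate 1 or control replicate 1) and between −0.0671 and 2.41 (turned without control replicate 2).

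Median distance for CDK bypass minus control turned to 2.545 kb with equal list lengths, 3.27 kb with 1 summit per 5 kb, 4.10 kb with a 30 kb limit, 0.711 kb without the outer 10 kb and 1.83 kb without repeated sequence. For CDK/DDK bypass it became 0.416 kb without the outer 10 kb and 3.67 kb without repeated sequence against control, and 1.84 kb without repeated sequence against CDK bypass. The ARS share turned to −3.71 points for CDK/DDK bypass minus CDK bypass with a 30 kb limit and to −9.79 for CDK bypass minus control without the outer 10 kb.

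The median percentile for CDK/DDK bypass minus control became 4.02 with equal list lengths, 22.9 without the outer 10 kb, 2.42 with chromosome 12 and 34.1 without repeated sequence. For CDK/DDK bypass minus CDK bypass it became 10.9, 21.4, 8.16 and 24.8 under the same settings, and leaving out 1 list gave −7.46 to 5.08 (turned without CDK/DDK bypass replicate 2). For CDK bypass minus control it became 1.55 without the outer 10 kb and 9.33 without repeated sequence.

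For ends against the interior, density became 0.0922 with equal list lengths, −0.0605 with 1 summit per 5 kb and 0.531 with a 30 kb limit, and the percentile difference became −3.58 with equal list lengths, 13.9 without the outer 10 kb and 15.7 with chromosome 12 (the last 2 with exact permutation p = 0.03125). The ARS difference was −4.08 without repeated sequence. Leaving out any 1 list gave −0.372 to −0.237 for density and −27.5 to −22.5 for the ARS share, where 5 lists allow no p below 0.0625. Of end regions, 11 were called in both control and neither CDK/DDK bypass list with 1 kb windows and 2 with equal list lengths. The number in control and not CDK bypass was 2 with equal list lengths. In CDK bypass and not control it was 7 with 1 kb and 1 with 2.5 kb windows, in CDK bypass and not CDK/DDK bypass it was 13, 3 and 0 with 1 kb windows, 2.5 kb windows and equal list lengths, and in CDK/DDK bypass and not CDK bypass it was 1 with 1 kb windows. The cause of these changes was not tested.

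Replicate numbers pair nothing in the labels, and the replicate differences of the region percentiles correlated at −0.03, 0.43 and −0.02 between the 3 pairs of groups. With same-numbered lists as a block the mean differences are the same by construction (−11.0 end summits for CDK/DDK bypass minus control) and the smallest p is 0.5. With 2 lists per group, unknown depth and most end summits in repeats, a missing call is not evidence of missing replication.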

Other observations

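The origins flanking the silent mating-type loci on chromosome 3 gave no call. ARS301, ARS302, ARS303 and ARS320, at or next to HML and starting 11146 to 15214 bp from the left end, and ARS317 and ARS318, at HMR on the right, had no summit within 2.5 kb in any of the 6 lists. On the same left arm ARS304, 30200 bp from the end, was called in both CDK bypass lists, with percentiles of 24.3 and 29.0, and in no CDK/DDK bypass or control list. These features were chosen after their values were seen, and those at HML lie close together, as do those at HMR. Lack of a call was common, since 43 of all 64 end ARS features (67.2%) had no summit in any list. ARS316 and ARS319, near the right end of chromosome 3, were among them.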
